A study of Homo sapiens with 9 samples.

Results

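The comparison is between human HEK293 cells that carried Cas9 together with Cre (genotype CC_Cas9_Cre, 3 libraries) and HEK293 cells that carried Cas9 without Cre (genotype CC_Cas9, 3 libraries). These are 6 of the 9 RNA-seq libraries of the series, taken by their genotype labels. The study concerns a knockout system that a chemical can switch on and reverse. The remaining 3 libraries, with Flpo in place of Cre (CC_Cas9_Flpo), were not compared. They entered the filter on low counts, the scaling between libraries and the estimate of spread between replicates. Both groups share the Cas9 transgene and the prefix CC, whose meaning the labels do not give. No target gene, guide RNA, inducer, treatment or time is given in the labels, so the comparison is of genotypes only. The labels also do not say whether the 3 libraries of a group came from separate cultures or clones, and the p-values therefore measure only the spread between these libraries, which may be technical. Below, "Cre" and "Cas9" name the groups, and values of a group are listed in the order of replicates 1, 2 and 3.

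HEK293 is a line of human embryonic kidney cells transformed with adenovirus DNA, whose E1 proteins interfere with p53 and RB. Cre is a phage recombinase that joins DNA at loxP sites and can remove or invert the segment between a pair of them. Cas9 is a bacterial nuclease that cuts DNA where a guide RNA pairs. Neither enzyme is a transcription factor. Strong Cre expression is known in other systems to cause breaks at loxP-like sequences, which is why genes of the DNA damage response were examined beside those of general cell functions.

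The libraries were shallow and unequal. The estimated counts summed to 1701730, 213907 and 891567 in the Cre libraries and to 993902, 1643166 and 3761779 in the Cas9 libraries, a 17.6-fold range from Cre replicate 2 to Cas9 replicate 3. The Cre total was 0.439 of the Cas9 total. At least 10 counts were seen for 11044, 3741 and 8177 genes with Cre and for 8722, 11017 and 13038 genes with Cas9. CPM is the count scaled to a common library size. By each library's own total, a count of 3 was 14.0 CPM in Cre replicate 2 and 0.797 CPM in Cas9 replicate 3. Of the genes tested, 19.4% had a count of 0 in Cre replicate 2. Group means of 6 library measures (log2 total, genes with 10 counts, and the percent of counts in the 10 largest genes, mitochondrial mRNAs, ribosomal proteins and histones) gave exact two-sided permutation p-values from 0.2 to 0.8, adjusted over the 6 measures from 0.36 to 0.8. With 3 libraries against 3 the smallest possible p is 0.10. Rank correlations between libraries overlapped within and between groups: across tested genes, which are not independent replicates, they ran from 0.687 to 0.916 within groups (median 0.816) and from 0.500 to 0.916 between groups (median 0.763). Cre replicate 1 correlated at 0.916 with Cas9 replicate 1 and at 0.687 with Cre replicate 2. Every pair differed by more than sampling noise, the least distant with a chi-square of 10.8 per degree of freedom.

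Markers of the cell line were present. The epithelial keratin KRT8 was at 410.4, 118 and 149.6 CPM with Cre and 302, 336 and 529 CPM with Cas9 alone, and the intermediate filament VIM was at 172, 879 and 274 CPM with Cre and 194, 409 and 585 CPM with Cas9 alone. Of the 10 tested epithelial and renal developmental markers 0 differed at unadjusted p under 0.05 (median log2 fold change -1.10). Because the labelled extraction protocol speaks of livers, 20 hepatocyte markers were examined. ALB, TTR, SERPINA1, FGA, FGB and FGG, which define hepatocytes, had a count of 0 in all 6 libraries, and 8 of the 20 were at 0 throughout. Summed hepatocyte markers took 0.0159, 0.0193 and 0.0367% of counts with Cre and 0.0255, 0.00847 and 0.00683% with Cas9, led by CPS1 and TF, and 0 of 4 tested differed at unadjusted p under 0.05 in the test described below (median log2 fold change 0.76).

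No gene passed the test for a difference between Cre and Cas9. Of 11905 genes tested with edgeR's quasi-likelihood test, 0 (0%) had a Benjamini-Hochberg adjusted p under 0.05, with 0.619 as the lowest adjusted value. Before adjustment, 879 genes (7.38% of those tested) had a p under 0.05, of which 161 were higher with Cre (1.35%) and 718 lower (6.03%). DESeq2 on the same counts called 4 genes, and limma voom with library quality weights called 3960. The library weights in that fit ran from 0.330 for Cas9 replicate 1 to 5.29 for Cas9 replicate 2 among the 6 libraries. The levels of the 3 Cre libraries lay wholly above or below the 3 Cas9 libraries for 1174 genes (9.86%), with 409 higher (3.44%) and 765 lower (6.43%). With 3 libraries against 3, random labels separate a gene in either direction with a probability of 0.10. The share of 9.86% is near that, so a lack of overlap in a single gene is no sign of a difference.

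Fold changes below are log2 values, Cre minus Cas9, from edgeR with TMM scaling, and CPM are TMM-scaled unless stated. Their median over all tested genes was -0.22 (quartiles -0.90 and 0.42), with 41.5% of estimates above 0 and 58.4% below. Scaling by library totals alone moved that median to 0.028 and the share of higher genes among those at unadjusted p under 0.05 from 18.3% (161 of 879) to 42.2% (285 of 675). Without the Flpo libraries 10277 genes were tested, and the same share of higher genes was 38.6% (258 of 668). The share of all tested genes lower at unadjusted p under 0.05 also moved with single libraries, from 6.03% to 17.9% without Cre replicate 1, 12.7% without Cas9 replicate 1, 3.54% without Cre replicate 2, 3.69% without Cas9 replicate 2, 1.94% without Cre replicate 3 and 1.06% without Cas9 replicate 3. Of the 34 lists described below, 22 held at least 1 such gene, against 27, 26, 17, 19, 14 and 6 in those 6 settings. Gene lists are therefore read against the median of all tested genes, and the SE of a fold change is given with it. The median SE was 0.69 over all genes and the biological coefficient of variation was 0.556. On the TMM scale, 2 counts in Cre replicate 2 are 7.35 CPM, so low values in that library rest on few counts.

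**Figure D1:**
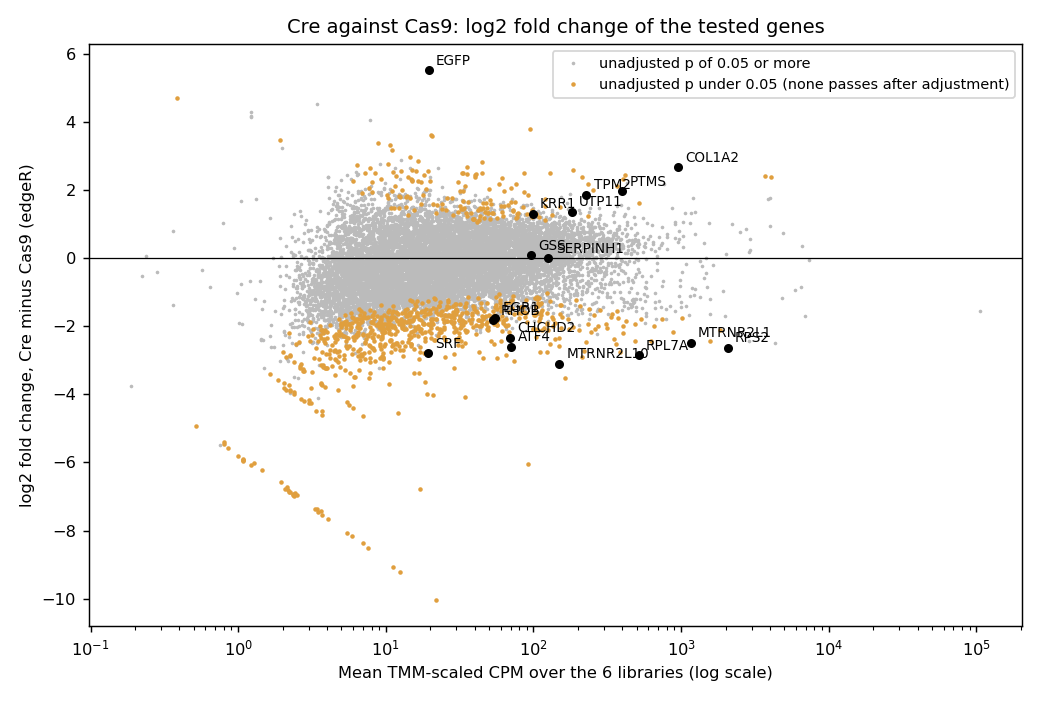
Log2 fold change (Cre minus Cas9, y axis) against mean TMM-scaled CPM over the 6 libraries (x axis, log scale) for each tested gene; orange points have an unadjusted p under 0.05 and black points are genes described in the text. Lower genes outnumber higher ones among the orange points (718 against 161); the descending edge at the lower left holds genes with few counts, including 39 at 0 in all 3 Cre libraries, whose fitted fold is no bound.

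Some well expressed genes had estimates near 0. Of 3292 genes with a mean of at least 50 CPM, 1011 had an estimate within 1.25-fold and 648 had one beyond 2-fold (242 higher, 406 lower). A whole 95% interval inside 2-fold is a stricter measure, since an estimate near 0 with a wide interval bounds little. It was met by 53 tested genes (0.445%), 44 of them with a mean of at least 50 CPM (1.34% of those 3292).

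The 10 such genes with the narrowest intervals had estimates between -0.061 and 0.097. With SEs of 0.41 to 0.42, an interval fits inside 2-fold only if the estimate is near 0. The small estimates therefore follow from how the genes were chosen. SERPINH1 (chr11:75562056-75572783), the collagen chaperone of the endoplasmic reticulum, was at 114, 136 and 128 CPM with Cre and 129, 123 and 129 CPM with Cas9 alone. Its log2 fold change was -0.012 with a 95% interval from -0.91 to 0.89. GSS (chr20:34928433-34956027), glutathione synthetase, was at 101, 110.3 and 85 CPM with Cre and 93.9, 97.1 and 88.1 CPM with Cas9 alone, with an interval from -0.81 to 0.97. ELAVL1, an RNA-binding protein that stabilises AU-rich mRNAs, stood at 96.5, 114 and 127 CPM with Cre and 126, 97.1 and 116 CPM with Cas9 alone. For the catalytic subunit of DNA polymerase epsilon, POLE, the values were 76.2, 103 and 94.4 CPM with Cre and 91.5, 81.8 and 81.6 CPM with Cas9 alone, and its interval reached 1.00. The groups overlapped for these 4 genes and for the other 6, which were ACAA2 (mitochondrial beta-oxidation), ZPR1 (a zinc finger protein), SRGAP2C (a human-specific SRGAP2 copy that shares sequence with its paralogs, so its count is uncertain), KNTC1 (kinetochore), SPTLC2 (sphingolipid synthesis) and METTL15 (mitochondrial rRNA methylation). Even for these genes the SE was 0.41 to 0.42, and a change of somewhat less than 2-fold is not bounded by these data.

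Among protein-coding genes with a mean of at least 50 CPM, 75 were higher in every Cre library than in any Cas9 library and 146 were lower. They are part of the 3292 genes at that level. Over all tested genes the shares without overlap were 3.44% higher and 6.43% lower, together near the share that random labels give. The 10 of these protein-coding genes with the smallest unadjusted p in each direction are described next, and each had an edgeR adjusted p of 0.619. PTMS (chr12:6765516-6770952), which encodes the small acidic nuclear protein parathymosin, was at 274, 864 and 774 CPM with Cre and 174, 164 and 153 CPM with Cas9 alone. Its log2 fold change was 1.96 (SE 0.61, unadjusted p = 0.00644), and the 3 Cas9 libraries lay close together while the Cre libraries were spread. UTP11 (chr1:38009258-38024824) and KRR1 (chr12:75490861-75511636) both encode small-subunit processome proteins of the nucleolus. UTP11 was at 158, 313 and 318 CPM with Cre and 133, 81.8 and 93.5 CPM with Cas9 alone, and KRR1 at 106, 143 and 172 CPM with Cre and 87.4, 53.4 and 31.4 CPM with Cas9 alone. Tropomyosin 2, TPM2, an actin-filament protein, was at 144, 721 and 212 CPM with Cre and 136, 80.1 and 78.3 CPM with Cas9 alone, so most of its mean difference came from Cre replicate 2. SLC39A7, a zinc transporter of the endoplasmic reticulum, was at 97.4, 202 and 112 CPM with Cre and 86.5, 55.1 and 35.9 CPM with Cas9 alone. FBXO6, an F-box protein that recognises glycoproteins, was at 35.2, 107 and 68 CPM with Cre and 32.1, 26.7 and 33.6 CPM with Cas9 alone. The centriole protein CEP76 stood at 59.8, 69.9 and 95.2 CPM with Cre and 56, 19.9 and 15.8 CPM with Cas9 alone. The other 3 were NIPAL2, the olfactory receptor OR10G3 and CCBE1, a secreted factor of lymphatic growth, with log2 fold changes of 1.70, 1.38 and 1.11.

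Lower genes were led by copies of the humanin sequence. MTRNR2L10 (chrX:55181391-55182920) was at 39.5, 33.1 and 21.3 CPM with Cre and 56.9, 283 and 462 CPM with Cas9 alone (log2 fold change -3.10, SE 0.73), and MTRNR2L1 (chr17:22523111-22524663) was at 396, 401 and 257 CPM with Cre and 531, 1973 and 3415 CPM with Cas9 alone. Both are nuclear copies of the mitochondrial 16S rRNA gene, and their counts are uncertain because reads can be shared with it and among copies. RHOB (chr2:20447074-20449445), an inducible small GTPase of endosomes, was at 35.2, 11 and 21.3 CPM with Cre and 48.6, 71 and 134 CPM with Cas9 alone (log2 fold change -1.83, SE 0.58). CHCHD2 (chr7:56101569-56106576), a mitochondrial intermembrane-space protein, was at 30.4, 29.4 and 10.2 CPM with Cre and 32.1, 137 and 179 CPM with Cas9 alone (log2 fold change -2.34, SE 0.77). The lysosomal growth factor progranulin, GRN, stood at 85.9, 18.4 and 20.4 CPM with Cre and 98.1, 147 and 317 CPM with Cas9 alone, and galectin-1, LGALS1, at 96.9, 36.8 and 40.8 CPM with Cre and 101, 206 and 208 CPM with Cas9 alone. STUB1, a co-chaperone ubiquitin ligase, was at 32.3, 18.4 and 5.1 CPM with Cre and 33.8, 54.5 and 216 CPM with Cas9 alone. For PAQR7, UPK3BL1 and CRTAP, a collagen prolyl-hydroxylation factor, the log2 fold changes were -2.18, -2.0 and -1.91. In most of these genes Cre replicate 1 and Cas9 replicate 1 were neighbours across the gap, as in CHCHD2, and Cas9 replicate 3 was the highest library.

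**Figure D2:**
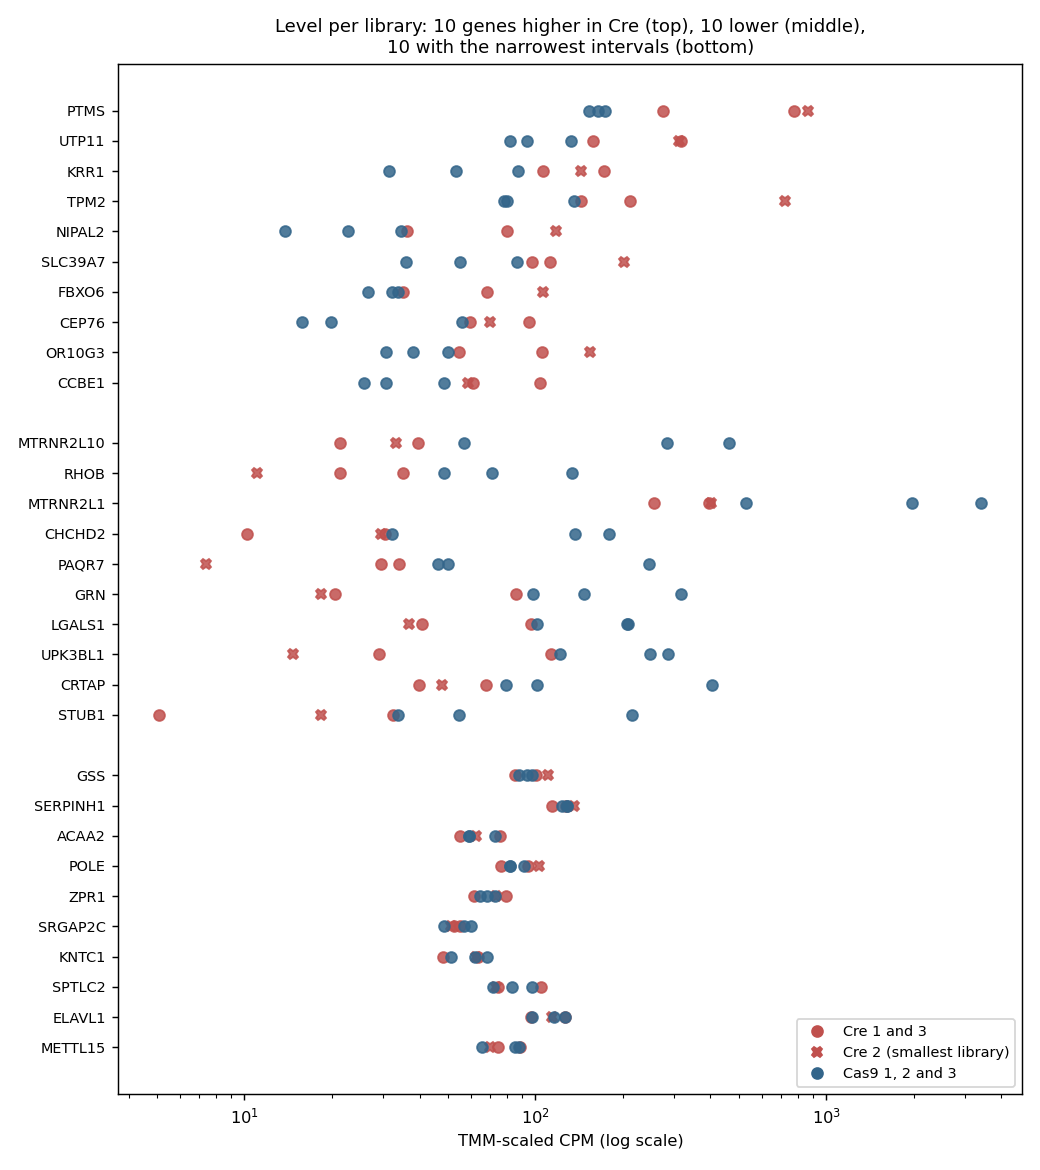
TMM-scaled CPM (x axis, log scale) in each library for 10 genes higher with Cre (top), 10 lower (middle) and 10 with the narrowest intervals (bottom); red is Cre (cross: replicate 2, the smallest library) and blue is Cas9. The top and middle genes were chosen for not overlapping, and the gap between groups is narrow in most (30.4 against 32.1 CPM in CHCHD2). The bottom genes, chosen for intervals inside 2-fold, intermix.

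Ribosomal protein genes, which encode the protein part of the translating ribosome, had the lowest median of the 34 lists. The 79 genes for cytosolic ribosomal proteins were all tested. Every estimate was below 0, from -2.86 to -0.37, with a median of -1.47 against -0.22 for all tested genes. At unadjusted p under 0.05, 29 were lower (36.7%, against 6.03% of all tested genes) and 0 higher, and 0 passed after adjustment. The count of 29 depended on single libraries: it was 2 without Cre replicate 2 or without Cre replicate 3, 0 without Cas9 replicate 3, 7 without Cas9 replicate 2, 45 without Cas9 replicate 1 and 65 without Cre replicate 1. The median stayed between -2.62 and -1.07 in these fits. Voom with library quality weights called 77 of the 79 lower after adjustment, in a fit that called 2260 of all 11905 tested genes lower. Most mRNAs of this family begin with a terminal oligopyrimidine (TOP) motif, a C at the first transcribed base followed by an unbroken run of C or T, through which growth signals control their translation.

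The starts of 4 members described below are printed to show this feature, which the choice of the list did not use. They were picked among the members that hold it, and RPS2 was not matched. They are RefSeq promoters (GRCh38.p14, plus strand) from 20 bases before to 20 bases after the transcription start, with the pyrimidine run of at least 5 bases from the start in capitals. They span chr11:809947-809986 for RPLP2, chr12:56116613-56116652 for RPL41, chr9:133348198-133348237 for RPL7A and chr2:101002269-101002308 for RPL31.
RPLP2: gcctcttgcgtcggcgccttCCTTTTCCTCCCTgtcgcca
RPL41: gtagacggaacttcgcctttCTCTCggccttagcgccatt
RPL7A: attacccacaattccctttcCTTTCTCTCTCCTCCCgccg
RPL31: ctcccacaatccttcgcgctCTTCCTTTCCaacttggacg
The runs are 13, 5, 16 and 10 bases long. A RefSeq promoter was matched for 63 of the 79 genes, and 43 of these (68.3%) held such a run on the transcribed strand, against 1104 of 27305 RefSeq promoters (4.04%). A match is a description of the letters, not of regulation in these cells.

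By level, RPS2, a small-subunit protein, was at 1439, 147 and 128 CPM with Cre and 464, 3290.4 and 6932 CPM with Cas9 alone (log2 fold change -2.63, SE 1.18). RPL41, a very small large-subunit protein, was at 1605, 228 and 205 CPM with Cre and 880.1, 3723 and 4310.3 CPM with Cas9 alone. RPLP2, an acidic stalk protein whose start has a longer pyrimidine run than that of RPL41, was at 2970.1, 114 and 849 CPM with Cre and 2314, 2968 and 2388 CPM with Cas9 alone, and Cre replicate 1 matched the highest Cas9 library. The smallest unadjusted edgeR p values belonged to RPL7A, a large-subunit protein, at 229, 91.9 and 52.7 CPM with Cre and 128, 645 and 1959.5 CPM with Cas9 alone (log2 fold change -2.86, SE 0.95), and RPL31 at 115, 33.1 and 20.4 CPM with Cre and 41.2, 405 and 710.0 CPM with Cas9 alone (log2 fold change -2.74, SE 0.94). In these genes Cre replicate 1 lay above Cas9 replicate 1, so the groups overlapped. Only 1 of the 79 genes did not overlap between the groups, against 6.43% of all tested genes on the lower side.

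The libraries fell in an order that crossed the genotypes. Ribosomal protein genes took 6.19, 1.12 and 1.78% of counts with Cre and 3.38, 7.98 and 9.42% with Cas9, which placed Cas9 replicates 3 and 2 highest, then Cre replicate 1, Cas9 replicate 1 and Cre replicates 3 and 2. Shares of genes for oxidative phosphorylation, the proteasome, translation factors, DNA replication and histones had the same order. Olfactory receptor genes, sensory receptors of the nose, had the exact reverse, with 0.275, 0.745 and 0.521% with Cre and 0.45, 0.177 and 0.114% with Cas9. Summed olfactory receptor counts were 4688, 1593 and 4643 and 4469, 2910.2 and 4301, a 2.94-fold range over libraries whose totals ranged 17.6-fold, while ribosomal protein counts ranged 147-fold. Ribosomal protein sequence also has many processed pseudogenes, so single counts are uncertain, and processed pseudogenes took 17.8%, 2.25% and 2.46% of counts with Cre and 10.7%, 22.3% and 18.1% with Cas9. With log2 total count as a covariate the ribosomal protein median was -0.59, against -0.067 for all tested genes, and 0 members were lower at unadjusted p under 0.05 (1.03% of all tested genes). Without the smallest and the largest library it was -0.82, again with 0 lower (0.678%). The part of the pseudogene shares was not tested.

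**Figure D3:**
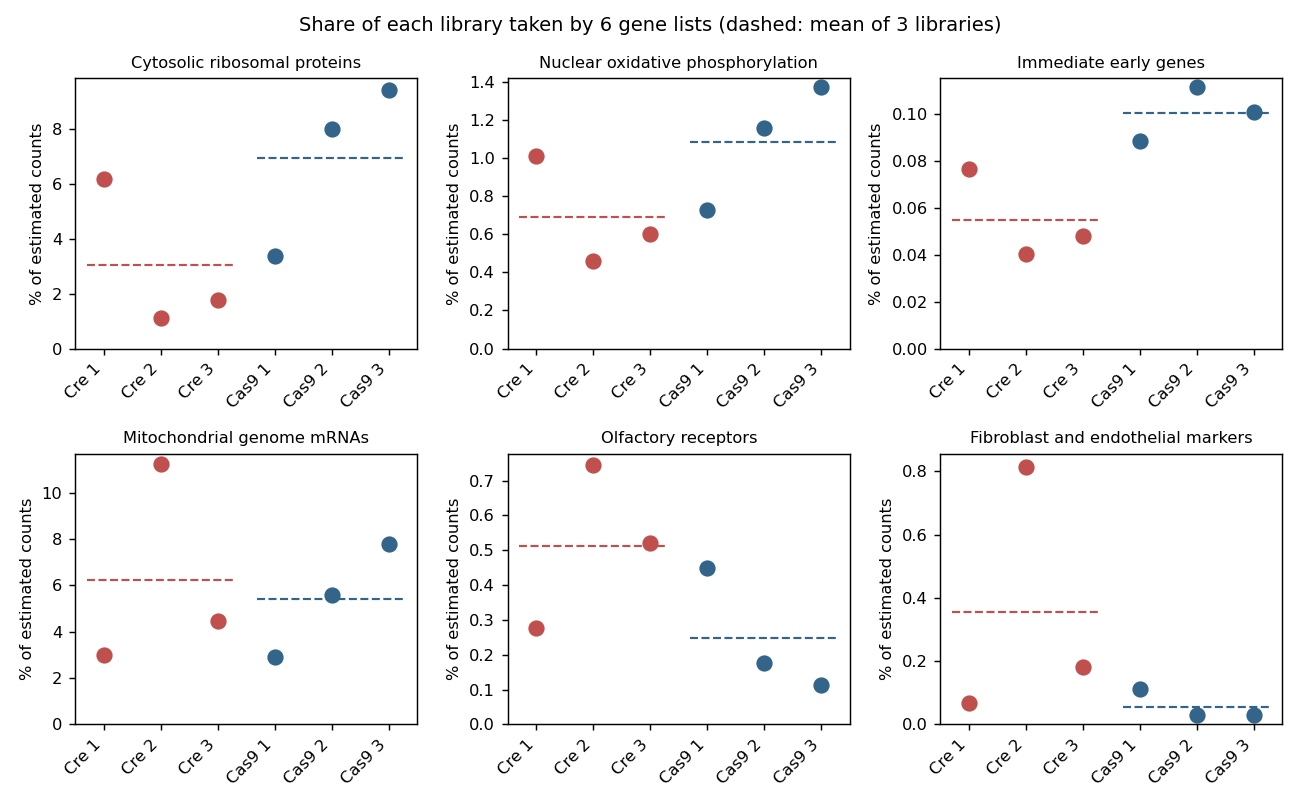
Percent of each library's estimated counts (y axis, from 0) taken by 6 gene lists; each point is a library (red Cre, blue Cas9) and dashed lines are means of 3. Immediate early genes are the only list of the 6 with no overlap (Cre 0.0402% to 0.0767%, Cas9 0.0886% to 0.112%), ribosomal proteins and olfactory receptors run in opposite orders, and fibroblast markers stand out in Cre replicate 2.

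**Figure D4:**
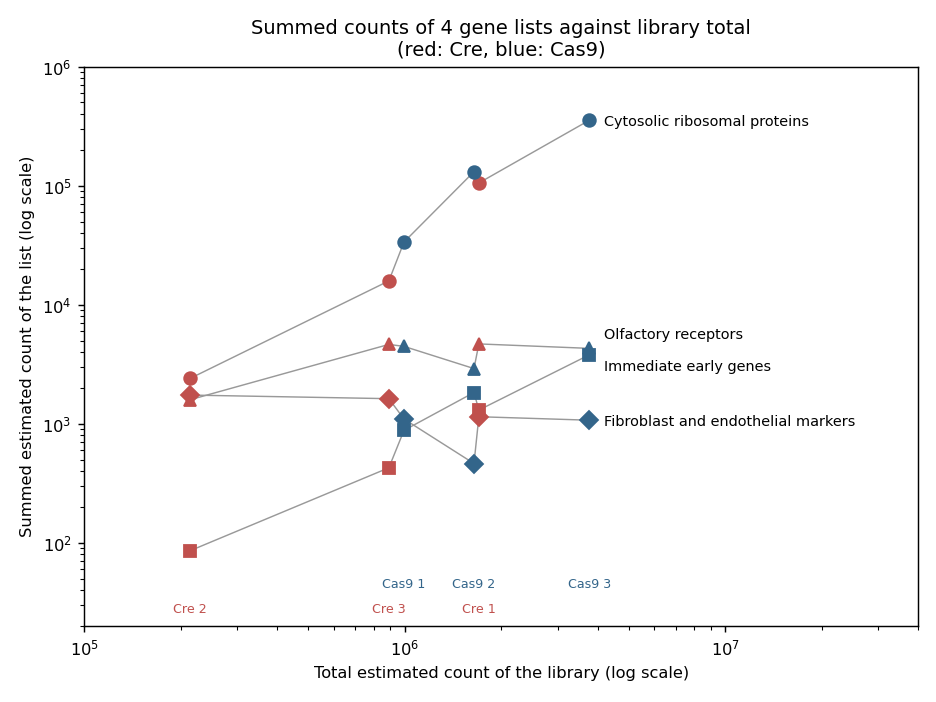
Summed estimated counts of 4 gene lists (y axis, log scale) against the total of each library (x axis, log scale), joined in order of total. Ribosomal protein counts climb 147-fold from Cre replicate 2 to Cas9 replicate 3, while olfactory receptor and fibroblast marker counts vary 2.94-fold and 3.76-fold.

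Other parts of the translation machinery were less one-sided. Of 37 translation factors, 2 were lower at unadjusted p under 0.05 (5.41%) and 0 higher, with a median of -0.82. EEF1A1, the factor that brings aminoacyl-tRNA to the ribosome, was at 739, 750.1 and 344 CPM with Cre and 466, 1179.7 and 2297 CPM with Cas9 alone, and EIF3C, an initiation factor subunit with a near-identical copy, at 810.3, 88.2 and 423 CPM with Cre and 722, 626 and 571 CPM with Cas9 alone. The 37 nucleolar ribosome assembly factors had a median of -0.35, with 2 lower and 0 higher. Their members spread widely: nucleolin, NCL, was at 374, 107 and 595 CPM with Cre and 260.4, 121 and 113 CPM with Cas9 alone and GAR1, an H/ACA snoRNP protein, at 1.45, 0 and 0 CPM with Cre and 4.94, 10.2 and 7.35 CPM with Cas9 alone. Cytosolic aminoacyl-tRNA synthetases (20 genes, 0 in either direction) had a median of -0.22, equal to that of all genes to 2 decimals, which turned to 0.0061 when libraries were scaled by totals alone. HARS, the histidyl enzyme, was at 72.3, 129 and 152 CPM with Cre and 98.1, 75 and 62.7 CPM with Cas9 alone.

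Energy metabolism genes of the nucleus and of the mitochondrial genome had medians on different sides of 0. Nuclear genes for oxidative phosphorylation had a median of -1.12, and 19 of 77 were lower at unadjusted p under 0.05 (24.7%, against 6.03%) and 0 higher. That count was 5 without Cre replicate 2, 1 without Cre replicate 3, 0 without Cas9 replicate 3, 8 without Cas9 replicate 2, 32 without Cre replicate 1 and 33 without Cas9 replicate 1. With log2 total count as a covariate it was 0 and the median was -0.35. COX6A1, a cytochrome c oxidase subunit, was at 101, 25.7 and 18.7 CPM with Cre and 42, 320.3 and 763 CPM with Cas9 alone (log2 fold change -2.91, SE 0.98), and ATP5F1B, the catalytic beta subunit of ATP synthase, at 259, 250.0 and 111 CPM with Cre and 108, 544 and 720.4 CPM with Cas9 alone. The 13 mRNAs of the mitochondrial genome had a median of 0.18 and 0 in either direction. They took 3.01, 11.2 and 4.45% of counts with Cre and 2.91, 5.58 and 7.77% with Cas9, highest in Cre replicate 2. MT-ND4 and MT-ND5, subunits of complex I, did not follow each other over the libraries: MT-ND4 was at 4037, 12299.6 and 5400 CPM with Cre and 3187, 6970.4 and 12324 CPM with Cas9 alone and MT-ND5 at 881, 12910 and 4256 CPM with Cre and 1796, 2033 and 1569 CPM with Cas9 alone. Without Cre replicate 2 the list's median turned to -0.71. Glycolysis enzymes (17 genes, 0 in either direction) had a median of -0.70, and GAPDH was at 2123, 360.3 and 294 CPM with Cre and 1043, 2837 and 5247 CPM with Cas9 alone.

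Protein folding and degradation genes were near or below the overall median. Of 32 proteasome subunits 3 were lower at unadjusted p under 0.05 (9.38%, against 6.03% of all tested genes) and 0 higher (median -0.67). The count of 3 ran from 0 without Cre replicate 2, Cre replicate 3 or Cas9 replicate 3 to 10 without Cas9 replicate 1. PSMC5, an ATPase of the regulatory particle, was at 93.1, 29.4 and 34 CPM with Cre and 74.2, 168 and 274 CPM with Cas9 alone, whereas PSMA6, of the core, was at 250.3, 379 and 468 CPM with Cre and 389.8, 217 and 157 CPM with Cas9 alone. The 8 subunits of the CCT chaperonin, which folds actin and tubulin, had a median of -0.86 with 2 lower (25%). That count was 0 without Cre replicate 2, Cre replicate 3, Cas9 replicate 2 or Cas9 replicate 3. It was 2 without Cre replicate 1 and 4 without Cas9 replicate 1. Heat shock proteins (21 genes, 1 lower, 4.76%) had a median of -0.52. HSP90AA1 was at 2333, 489 and 1814 CPM with Cre and 1895, 1846 and 1560.0 CPM with Cas9 alone, with Cre replicate 2 alone below the rest, and the mitochondrial co-chaperonin HSPE1 was at 3.86, 7.35 and 3.4 CPM with Cre and 10.7, 27.3 and 31.6 CPM with Cas9 alone (log2 fold change -2.46, SE 0.77).

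Immediate early genes encode transcription factors and feedback proteins that cells switch on within minutes of a growth or stress signal. They were the only list of 34 whose summed share of counts did not overlap between the groups: 0.0767, 0.0402 and 0.0479% with Cre and 0.0886, 0.112 and 0.101% with Cas9. No background share is known for summed lists, so 1 such list of 34 does not by itself set these genes apart. Of 32 listed genes 22 were tested. Singly, 7 of the 22 did not overlap on the lower side and 0 on the higher. Among all tested genes, 6.43% did not overlap on the lower side and 9.86% in either direction. Of the 22, 8 were lower at unadjusted p under 0.05 (36.4%, against 6.03% of all tested genes). None was higher (0), and 0 passed after adjustment. The median was -1.41. The count of 8 was 4 without Cre replicate 2, 2 without Cre replicate 3, 3 without Cas9 replicate 2 or without Cas9 replicate 3, 9 without Cre replicate 1 and 11 without Cas9 replicate 1, with medians from -1.82 to -0.92.

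Many immediate early genes carry a CArG box, the binding sequence of serum response factor (SRF). Stretches of the EGR1 and SRF promoters are shown because they were the only 2 of 24 matched list members with that motif in this window (8.33%, against 1.29%, or 351 of 27305, of RefSeq promoters). The motif reads as itself on the opposite strand, so the search covered both strands from 250 bases before to 50 bases after the start, and overlap with other motifs was not searched. CArG boxes are in capitals, and the stretches are chr5:138465359-138465418 and chr6:43171219-43171278 (RefSeq, GRCh38.p14, plus strand).
EGR1: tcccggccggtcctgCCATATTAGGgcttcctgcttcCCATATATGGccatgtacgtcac
SRF: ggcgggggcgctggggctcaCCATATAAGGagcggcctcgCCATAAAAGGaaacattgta
Relative to the transcription start, the boxes begin at -105 and -83 in EGR1 and at -30 and -10 in SRF. Binding of any factor there was not measured.

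The zinc finger factor EGR1 (chr5:138465490-138469315) was at 50.2, 7.35 and 13.6 CPM with Cre and 57.7, 91.4 and 111 CPM with Cas9 alone (log2 fold change -1.75, SE 0.62, unadjusted p = 0.0141), and the groups did not overlap. SRF itself was at 10.6, 0 and 0.85 CPM with Cre and 5.77, 42.6 and 56.2 CPM with Cas9 alone (log2 fold change -2.79, SE 0.94), where Cre replicate 1 exceeded Cas9 replicate 1. The AP-1 subunit JUN was at 235, 36.8 and 60.4 CPM with Cre and 298, 342 and 266 CPM with Cas9 alone (log2 fold change -1.41, SE 0.62), its dimer partner FOSB at 26, 7.35 and 17 CPM with Cre and 34.6, 59.6 and 44.9 CPM with Cas9 alone and JUND at 24.6, 7.35 and 1.7 CPM with Cre and 22.2, 52.8 and 55.9 CPM with Cas9 alone. KLF6, a Kruppel-like factor, was at 33.8, 3.68 and 19.6 CPM with Cre and 49.4, 94.3 and 73.2 CPM with Cas9 alone (log2 fold change -1.79, SE 0.59). DUSP1, a phosphatase that switches off MAP kinases, was at 8.68, 22.1 and 7.65 CPM with Cre and 15.7, 45.4 and 74 CPM with Cas9 alone, and BTG1, an antiproliferative protein, at 10.6, 3.68 and 8.5 CPM with Cre and 9.06, 25.6 and 35.9 CPM with Cas9 alone. The list was not uniform: FOS was at 13, 25.7 and 12.8 CPM with Cre and 22.2, 12.5 and 21.2 CPM with Cas9 alone, the orphan nuclear receptor NR4A1 at 53.1, 88.2 and 94.4 CPM with Cre and 65.9, 40.9 and 32.5 CPM with Cas9 alone, and JUNB at 5.31, 14.7 and 17.9 CPM with Cre and 0.824, 7.95 and 9.32 CPM with Cas9 alone. In 7 of the 8 lower members Cre replicates 2 and 3 were below every Cas9 library, the exception being DUSP1. Cre replicate 1 was below Cas9 replicate 1 in EGR1, JUN, FOSB, KLF6 and DUSP1 and above it in SRF, JUND and BTG1. Cre replicate 2 contributed 2 counts of EGR1 and 10 of JUN. With log2 total count as a covariate the list's median was -0.64 with 3 lower, and without the smallest and the largest library -0.84 with 1 lower.

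Genes that respond to DNA breaks differed about as often as all tested genes. Of 43 tested genes for double-strand break repair and damage signalling, 3 were lower at unadjusted p under 0.05 (6.98%, against 6.03%) and 0 higher, with a median of -0.30. ATM, the kinase that breaks activate, was at 215, 357 and 415 CPM with Cre and 282, 218 and 114 CPM with Cas9 alone (log2 fold change 0.69, SE 0.58), and the end-processing nuclease MRE11 at 399, 272 and 858 CPM with Cre and 799, 282 and 197 CPM with Cas9 alone. BRCA1, of homologous recombination, was at 251, 195 and 262 CPM with Cre and 345, 282 and 300.3 CPM with Cas9 alone, a set of values that did not overlap though the estimate was only -0.38 (SE 0.48). TP53BP1, which marks breaks for end joining, was at 89.2, 114 and 116 CPM with Cre and 110.4, 92 and 81.1 CPM with Cas9 alone with a 95% interval from -0.74 to 1.08. RPA1, which coats single-stranded DNA, was at 23.6, 3.68 and 7.65 CPM with Cre and 25.5, 53.4 and 52.3 CPM with Cas9 alone. RAD54L had counts of 0 in the 3 Cre libraries and of 2, 1 and 23 in the Cas9 libraries, too few for a fold.

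Targets of p53, the factor that damage activates, gave 0 of 27 tested genes in either direction, with a median of -0.34. The feedback ubiquitin ligase MDM2 was at 321, 404 and 493 CPM with Cre and 396, 216 and 319 CPM with Cas9 alone, and its 95% interval ran from -0.72 to 1.50. CDKN1A, the cell-cycle inhibitor p21, was at 68.5, 0 and 9.35 CPM with Cre and 17.3, 81.8 and 135 CPM with Cas9 alone (log2 fold change -1.44, SE 0.94). DDB2, of nucleotide excision repair, was at 191, 129 and 211 CPM with Cre and 202, 184 and 146 CPM with Cas9 alone (log2 fold change 0.0039, SE 0.51), and ZMAT3, an RNA-binding p53 target, at 311, 386 and 546 CPM with Cre and 418, 266 and 228 CPM with Cas9 alone. The 95% intervals of MDM2, DDB2 and ZMAT3 reached 1.50, 1.10 and 1.67 and so include a 2-fold increase, whereas that of CDKN1A ran from -3.47 to 0.59. Apoptosis regulators (23 genes, 3 or 13.0% lower, 0 higher) had a median of -0.11, which turned to 0.10 with scaling by totals alone. The count of 3 ran from 0 without Cre replicate 3 or Cas9 replicate 3 to 6 without Cre replicate 1 or Cas9 replicate 1. Among these regulators PMAIP1, the BH3-only protein NOXA, was at 7.72, 7.35 and 5.1 CPM with Cre and 7.42, 27.8 and 48.3 CPM with Cas9 alone.

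Genes that answer foreign nucleic acid had medians just above 0, which turned below 0 in some of the other settings. The 9 nucleic acid sensing genes had a median of 0.072 and 0 in either direction, and the adaptor MAVS was at 342, 375 and 468 CPM with Cre and 385, 293 and 281 CPM with Cas9 alone. Interferon-stimulated genes had a median of 0.061, with 1 of 33 higher (3.03%, against 1.35% of all tested genes) and 3 lower (9.09%, against 6.03%). The 3 lower ones were the membrane restriction factors IFITM1, IFITM2 and IFITM3, near-identical neighbours whose reads can be shared. IFITM3 was at 136, 55.2 and 24.7 CPM with Cre and 93.9, 186 and 607 CPM with Cas9 alone, with Cas9 replicate 3 far above the rest. EIF2AK2, the double-stranded RNA kinase PKR, was at 128, 224 and 287 CPM with Cre and 238, 124 and 101 CPM with Cas9 alone.

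Lists of metabolic stress programmes held from 3.23% to 13.0% of genes lower at unadjusted p under 0.05, against 6.03% of all tested genes. Targets of ATF4, the factor of the integrated stress response, had 1 of 31 lower, which was ATF4 itself at 40.5, 11 and 4.25 CPM with Cre and 20.6, 115 and 229 CPM with Cas9 alone (log2 fold change -2.61, SE 0.87). Its target PHGDH, of serine synthesis, was at 154, 29.4 and 43.4 CPM with Cre and 98.1, 177 and 162 CPM with Cas9 alone. The list's median was -0.44. Endoplasmic reticulum chaperones and unfolded protein response genes (21 genes, 1 lower) had a median of -0.17, which turned to 0.12 with scaling by totals alone. CANX, calnexin, was at 236, 139.7 and 152 CPM with Cre and 132, 199 and 171 CPM with Cas9 alone, and P4HB, a disulfide isomerase, at 132, 118 and 114 CPM with Cre and 116, 123 and 147 CPM with Cas9 alone. NRF2 antioxidant genes (23, 1 lower) had a median of -0.38 and the 17 hypoxia response genes (1 lower) had -0.58. FTL, the ferritin light chain, was at 153, 80.9 and 33.2 CPM with Cre and 56, 302 and 853 CPM with Cas9 alone. Genes of cholesterol synthesis and uptake (23, 3 lower, 13.0%) had a median of -0.54, with the sterol isomerase EBP at 14, 3.68 and 5.95 CPM with Cre and 13.2, 32.9 and 73.2 CPM with Cas9 alone. The count of 3 ran from 0 without Cas9 replicate 3 to 7 without Cre replicate 1.

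Genes of DNA replication and mitosis had medians below that of all tested genes. Of 41 genes for DNA replication and nucleotide supply, 5 were lower at unadjusted p under 0.05 (12.2%, against 6.03%) and 0 higher, with a median of -0.97. The count of 5 was 0 without Cre replicate 3 or Cas9 replicate 3, 2 without Cre replicate 2 and 4 without Cas9 replicate 2. It was 13 without Cas9 replicate 1 and 15 without Cre replicate 1. CDT1, which loads the replicative helicase, was at 89.7, 36.8 and 39.1 CPM with Cre and 89.8, 147 and 274 CPM with Cas9 alone, and MCM7, a helicase subunit, at 107, 22.1 and 49.3 CPM with Cre and 115, 149 and 303 CPM with Cas9 alone. Of 41 mitosis genes, 4 were lower (9.76%) and the median was -0.60. The count of 4 ran from 0 without Cas9 replicate 3 to 14 without Cre replicate 1. AURKB, the kinase of the chromosomal passenger complex, was at 22.2, 7.35 and 3.4 CPM with Cre and 12.4, 51.1 and 68.1 CPM with Cas9 alone, while BIRC5, survivin, of the same complex, was at 238, 338 and 380.1 CPM with Cre and 359, 206 and 197 CPM with Cas9 alone. Of 89 clustered histone genes 20 were tested. They had a median of 0.18, with 2 higher (10%, against 1.35%) and 1 lower (5.0%). In the 6 libraries alone 13 were tested and 0 were higher. The count of 2 was 0 without Cre replicate 2, Cre replicate 3 or Cas9 replicate 2. It was 1 without Cas9 replicate 3, 2 without Cas9 replicate 1 and 3 without Cre replicate 1, where the median was -0.48. The summed share of histone genes was led by HIST1H4C at 1084, 114 and 174 CPM with Cre and 398, 1436 and 2253 CPM with Cas9 alone. For hnRNP and SR splicing regulators 4 of 37 were lower (10.8%, median -0.90). That count was 0 without Cre replicate 2, Cre replicate 3 or Cas9 replicate 3. It was 1 without Cas9 replicate 2, 9 without Cre replicate 1 and 13 without Cas9 replicate 1. HNRNPA1 was at 227, 62.5 and 59.5 CPM with Cre and 119, 412 and 577 CPM with Cas9 alone, and HNRNPU at 616, 699 and 756 CPM with Cre and 871, 489 and 350.3 CPM with Cas9 alone. Histone methyltransferases of the KMT2 and SETD1 families and others had 1 of 19 lower and a median of -0.082, or 0.19 with scaling by totals alone. KMT2A was at 285, 254 and 231 CPM with Cre and 204, 244 and 216 CPM with Cas9 alone.

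**Figure D5:**
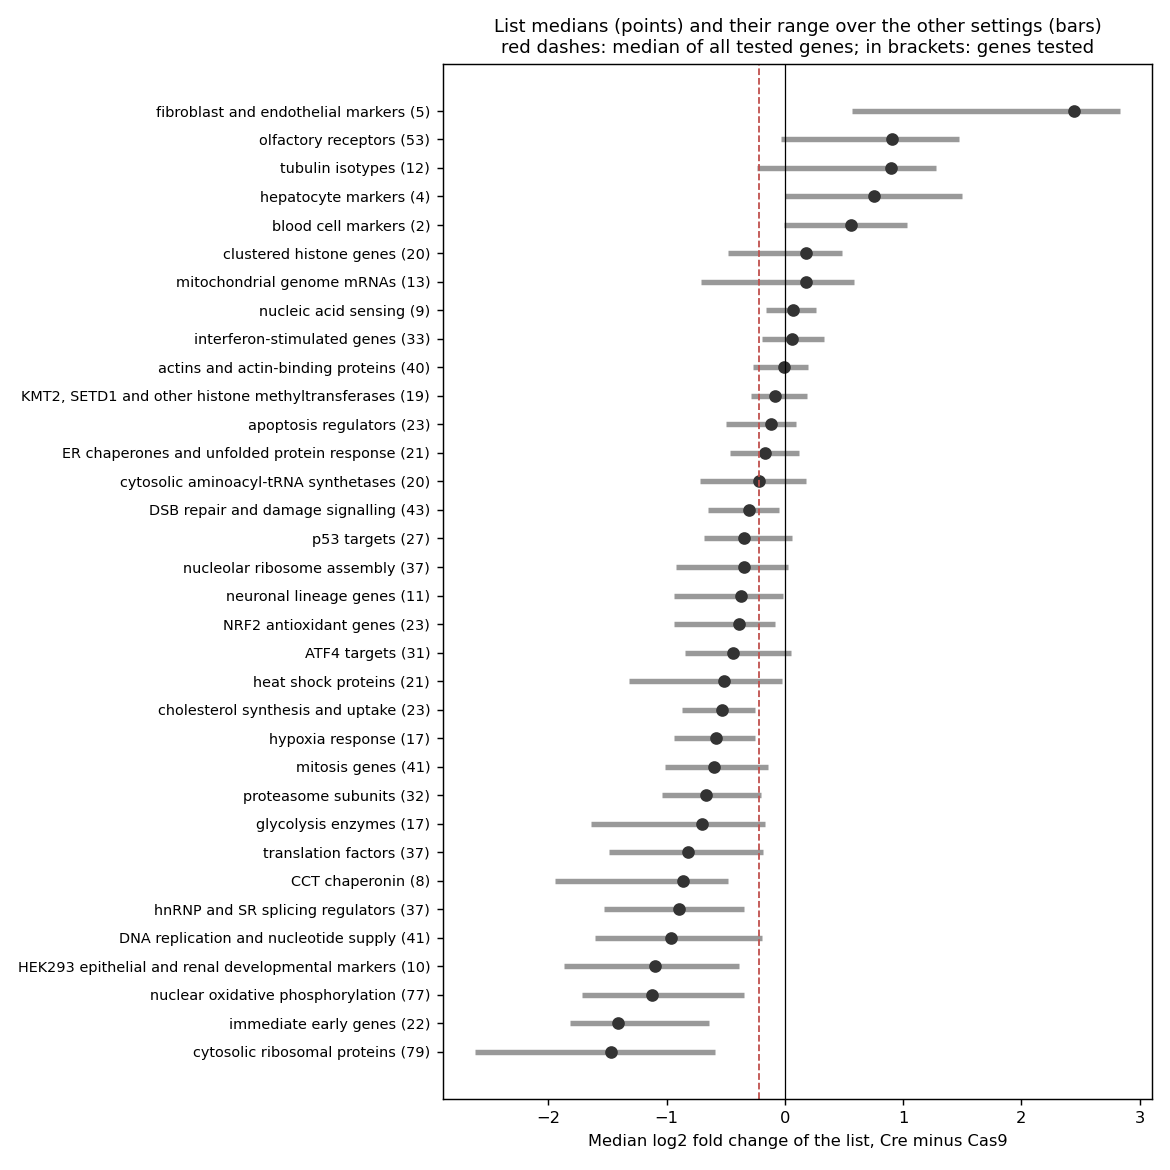
Median log2 fold change (Cre minus Cas9, x axis) of 34 gene lists (y axis, genes tested in brackets); points are the medians described in the text and bars their range over the alternative settings. Ribosomal proteins (-1.47) lie lowest and fibroblast and endothelial markers (2.45) highest, against -0.22 for all tested genes (red dashes), and the bars of 15 lists reach both sides of 0.

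Several cytoskeletal and matrix genes were highest in Cre replicate 2. The fibroblast and endothelial markers had 4 of 5 tested genes higher at unadjusted p under 0.05 (80.0%, against 1.35% of all tested genes), 0 after adjustment, and a median of 2.45. Without Cre replicate 2, 0 of them were higher and the median was 0.89, and without Cas9 replicate 2 the count was 2. With log2 total count as a covariate 0 were higher and the median was 0.57. COL1A2 (chr7:94394561-94431232), a chain of type I collagen, was at 283, 3868 and 815 CPM with Cre and 513, 119 and 152 CPM with Cas9 alone (log2 fold change 2.67, SE 0.93). COL1A1, its partner chain, was at 149.5, 1607 and 342 CPM with Cre and 224, 75 and 86.2 CPM with Cas9 alone, and COL3A1, of type III collagen, at 104, 853 and 202 CPM with Cre and 138, 63.6 and 53.4 CPM with Cas9 alone. Cre replicate 2 was the highest library for each and Cre replicate 1 lay below Cas9 replicate 1, so the groups overlapped. As counts, COL1A2 gave 587, 1052 and 958 with Cre and 623, 209 and 538 with Cas9, the largest number coming from the smallest library. Other markers of these cells were near 0: PDGFRA had 1, 0 and 0 counts with Cre and 0, 0 and 7 with Cas9, and the endothelial CDH5 had 0 throughout. Summed shares of the list were 0.0674, 0.815 and 0.182% with Cre and 0.11, 0.0282 and 0.0285% with Cas9. Their order was that of the olfactory receptors, except that Cas9 replicates 2 and 3 changed places. Summed counts were 1147, 1743 and 1626 with Cre and 1097, 464 and 1072 with Cas9. That is a 3.76-fold range over totals that ranged 17.6-fold.

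A further 13 mesenchymal genes were chosen after these values were seen. Of the 12 tested 6 were higher at unadjusted p under 0.05 (median 1.28), and without Cre replicate 2 0 were (median 0.46). SPARC, a collagen-binding matrix protein, was at 137, 1346 and 326 CPM with Cre and 228, 83.5 and 103 CPM with Cas9 alone, TAGLN, transgelin, at 80.1, 794 and 191 CPM with Cre and 128, 32.4 and 45.5 CPM with Cas9 alone and ACTA2, smooth muscle actin, at 1310.4, 15418 and 3626 CPM with Cre and 2592, 600.4 and 717 CPM with Cas9 alone. COL6A1, by contrast, was at 25.1, 3.68 and 6.8 CPM with Cre and 16.5, 39.2 and 40.1 CPM with Cas9 alone. Actins and actin-binding proteins (40 genes) had 2 higher and 2 lower, and a median of -0.0065 that turned to 0.20 with scaling by totals alone and was -0.15 without Cre replicate 2 (0 higher, 1 lower). ACTG1, cytoplasmic gamma actin, was at 1435, 13826 and 3224 CPM with Cre and 2337, 1049 and 2129.9 CPM with Cas9 alone. Tubulin isotypes (12 genes, 0 in either direction) had a median of 0.90, and -0.24 without Cre replicate 2. TUBB3, the neuronal beta isotype, was at 123, 1622 and 378 CPM with Cre and 282, 75 and 107 CPM with Cas9 alone, and TUBB, the general one, at 913, 2618 and 894 CPM with Cre and 931, 1184 and 2352 CPM with Cas9 alone. The other neuronal lineage genes did not share this: SOX4 was at 728, 202 and 871 CPM with Cre and 1139.7, 566 and 595 CPM with Cas9 alone and STMN1 at 270.1, 169 and 105 CPM with Cre and 135, 334 and 447 CPM with Cas9 alone, and 0 of 11 differed at unadjusted p under 0.05 (median -0.37, and -0.019 without Cre replicate 2). Olfactory receptors had 2 of 53 tested genes higher (3.77%, against 1.35%) and 0 lower, with a median of 0.90 that was 0.58 without Cre replicate 2 (0 higher), while 257 of the 407 in the table had no count in the 6 libraries. Blood cell markers had 0 of 2 in either direction. The source of the composition of Cre replicate 2 was not tested, nor was the part of library depth. In bulk RNA, more cells of a type and more RNA per cell cannot be told apart.

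EGFP, a jellyfish fluorescent protein that is not a human gene, was listed in the table and separated the groups without overlap. Its counts were 154, 2 and 38 with Cre and 3, 0 and 2 with Cas9. As CPM of each library's own total, without TMM scaling, these are 90.5, 9.35 and 42.6 with Cre, and 3.02, 0 and 0.532 with Cas9. The 95% Wilson intervals of the Cre values were 77.3 to 106, 2.56 to 34.1 and 31.1 to 58.5 CPM, and those of the Cas9 values were 1.03 to 8.88, 0 to 2.34 and 0.146 to 1.94 CPM, for counting error only. The interval of Cre replicate 2 overlapped that of Cas9 replicate 1, and its 2 counts lay under the 3-count floor of 14.0 CPM. The means were 47.5 ± 40.8 and 1.18 ± 1.61 CPM (SD, n = 3 each), with an exact two-sided permutation p of 0.1, the smallest that 3 against 3 allows. The edgeR log2 fold change was 5.51 (SE 1.08, adjusted p = 0.619). EGFP was 1 of the 4 genes DESeq2 called (log2 fold change 5.48, adjusted p = 0.00189). The labels do not mention EGFP, and the construct that carries it is not given in the sources used here.

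A few features took over 1% of a library. A processed pseudogene, AC010970.1, took 17.2%, 1.04% and 1.51% of counts with Cre and 9.99%, 21.9% and 17.7% with Cas9. Its log2 fold change was -1.56 (SE 1.84), and Cre replicate 1 lay above Cas9 replicate 1. The polyubiquitin gene UBB, which supplies ubiquitin under stress, was highest in Cas9 replicate 3, at 267, 1912 and 532 CPM with Cre and 387, 954 and 13208 CPM with Cas9 alone. ACTG2, enteric smooth muscle actin, was at 1175, 14035 and 3407 CPM with Cre and 2327, 532 and 664 CPM with Cas9 alone, parallel to ACTA2, with which it shares near-identical coding sequence. NMNAT3, a mitochondrial NAD-synthesis enzyme, was at 1958, 10215 and 3652 CPM with Cre and 4469, 1277 and 2457 CPM with Cas9 alone. All of these overlapped between the groups, and 0 passed the edgeR test.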

How the data were processed

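The libraries were TruSeq preparations of TRIzol-extracted RNA, per the labels' protocols. What the authors deposited is 1 table with an estimated count for each symbol in each of the 9 libraries, made with Salmon 0.14.1 and build hg38 per the submitters' processing notes. The annotation, strand setting and filters are not given in the sources used here. The table holds 35876 symbols, of which 35378 matched GENCODE 29 (GRCh38), used for gene type and position. Lists of short structured RNAs and nuclear long noncoding RNAs matched no symbol and were not analysed here.

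Estimated counts were rounded and tested with edgeR 4.0.16 (quasi-likelihood, TMM, filterByExpr with minimum count 10 and minimum total 15) in R 4.3.3 over all 9 libraries, with the contrast Cre minus Cas9 and Benjamini-Hochberg adjustment over all tested genes at 0.05. SEs and 95% intervals come from that fit. DESeq2 1.42.0 and limma 3.58.1 were alternatives. Exact permutation tests used scipy 1.17.1 under Python 3.11.15. The procedure was also run on simulated data, and how often it recovered a change is not reported here.

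Named genes were the 10 protein-coding genes in each direction with the smallest p among those without overlap and at least 50 CPM, the 3 highest and 2 smallest-p members of each list, the 10 narrowest intervals, EGFP, and symbols above 1% of counts. Other list members were added for their roles. Some genes that the rule names are not reported here. The comparison, members and lists were chosen with earlier results of these data known. No batch is labelled.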

Additional observations from a re-analysis of the deposited data

How the results depend on the processing

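The number of genes called was 0 in the edgeR fit and in every alternative except DESeq2 (4), voom with library quality weights (3960) and no filter on low counts (51, of which 7 were higher). Of the 879 genes at unadjusted p under 0.05, the count became 5660 with voom weights, 164 with log2 total count as a covariate, 1883 with no filter, 443 with a minimum count of 50, and 103 without both the smallest and the largest library (Cre replicate 2 and Cas9 replicate 3), an alternative chosen after seeing the data. The 53 genes inside 2-fold became 324 with DESeq2, 880 with voom weights, 17 with the covariate, 14 without TMM, 23 with no filter, 283 in the 6 libraries alone and 297 with a minimum count of 50. Leaving out 1 library at a time gave 0 to 0 genes called, 174 to 2819 at unadjusted p under 0.05 and 5 to 35 inside 2-fold. The largest of these counts came without Cre replicate 1 (2819) and without Cas9 replicate 1 (2425), and the smallest without Cas9 replicate 3 (174). Without Cre replicate 3 it was 355, without Cre replicate 2 it was 541 and without Cas9 replicate 2 it was 557. The cause was not tested.

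Replicate numbers are shared by the groups, but same-numbered libraries did not deviate together (r = -0.48, -0.14 and -0.37), so the numbers were not taken to pair them. With the replicate block, 0 genes were called, 565 had an unadjusted p under 0.05 and 2 were inside 2-fold.

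The Cre minus Cas9 difference in the share of the 10 largest genes was -9.18 percentage points and turned to 0.432 when genes above 1% of counts were dropped. Leaving out 1 library gave -14.0 to -5.24 for that share, -2.07 to -0.57 for log2 total, -4967 to -1315 for genes with 10 counts, -1.69 to 2.43 for mitochondrial mRNAs, -5.67 to -2.65 for ribosomal proteins, -0.116 to -0.0344 for histones, and 24.8 to 65.4 CPM for EGFP (46.3 with all libraries). List medians stayed below 0 in all 16 alternatives for 17 lists and above 0 for 1, 15 lists changed sign in at least 1, and hepatocyte markers stayed above 0 except with no filter, where the median was 0. Some of the 17 did not stay below the median of all tested genes in every setting. Heat shock proteins reached 0.042 above it, break repair genes 0.11, NRF2 genes 0.056 and neuronal lineage genes 0.11. Depth limits the comparison most in Cre replicate 2, where 3741 genes had at least 10 counts.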

Other observations

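Several features outside the rule for named genes were singled out after their values were seen. The homeobox gene EMX1, a forebrain patterning factor, had 1068 counts in Cas9 replicate 1, against 27, 19 and 7 in the Cre libraries and 3 and 23 in Cas9 replicates 2 and 3. The library with the high value is in the control group, and its log2 fold change was -3.53 (edgeR adjusted p = 0.619). DESeq2 called 3 features besides EGFP. RNA5-8SP6, a pseudogene of the 5.8S ribosomal RNA, was at 83.4, 338 and 104 CPM with Cre and 18.1, 15.9 and 4.52 CPM with Cas9 (log2 fold change 3.92, DESeq2 adjusted p = 0.00103). The processed pseudogene AC116533.1 was at 0.965, 0 and 5.95 CPM with Cre and 14.0, 97.7 and 435 CPM with Cas9 (log2 fold change -6.17, DESeq2 adjusted p = 0.00103). The third, H3F3AP4, is a processed pseudogene of a histone H3.3 gene and had a log2 fold change of -4.11 (DESeq2 adjusted p = 0.0161). Reads of such copies can be shared with their parent genes, so the counts are uncertain. edgeR gave each an adjusted p of 0.619.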
